A study of Mus musculus with 12 samples.

Results

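Immune checkpoint genes were examined in irradiated and non-irradiated mouse tumors of Sirpα-KO and wild-type (WT) hosts. The set was a list of 7 symbols, the receptors Ctla4, Pdcd1, Lag3, Tigit and Btla and the ligands Cd274 and Pdcd1lg2, and a gene was taken where its symbol matched a row of the table exactly. Rows were found for 6 of the 7 among 561 genes of an nCounter immunology panel, which counts RNA molecules with colour-coded probes and without amplification. Lag3 was not analysed here.

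Checkpoint receptors are brakes on lymphocytes. CTLA-4 appears on T cells after activation and is constantly made by regulatory T cells, where it takes the ligands CD80 and CD86 away from the co-stimulatory receptor CD28. PD-1, encoded by Pdcd1, damps antigen receptor signalling when it meets PD-L1 (Cd274) or PD-L2 (Pdcd1lg2), and PD-L1 on tumor and myeloid cells is a classical target gene of interferon. TIGIT on T and NK cells binds the poliovirus receptor, and BTLA on B cells, T cells and some dendritic cells binds HVEM, the product of Tnfrsf14.

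The samples came from C57BL6 mice, 6 to 8 weeks old by the labels, that lacked Sirpα in the whole animal (Sirpα-KO) or were WT and carried subcutaneous tumors of MC38 colorectal, Pan02 pancreatic or KPC pancreatic cancer cells. SIRPα is an inhibitory receptor of macrophages for CD47. In both genotypes tumors either received a single local dose of 8 Gy (IR) or stayed without irradiation, which gave the 4 groups Sirpα-KO IR, WT IR, Sirpα-KO without IR and WT without IR. Each of the 12 samples was 1 pool of RNA from 4 mice, 2 taken at 12 h and 2 at 18 h. A group thus held 3 samples, 1 per tumor model. P-values across groups weighed a difference against how far such differences varied between tumor models, with no measure of the spread between mice. The Sirpα transcript was not analysed here, and the genotype labels were not checked against it.

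Promoter sequence is shown for Ctla4, which changed with genotype under IR, for the neighbouring ligand genes Cd274 and Pdcd1lg2, and for Tigit. Of the ligand genes only Cd274 ranked higher in every irradiated sample. Each line gives the 150 bases upstream of the transcription start used by RefSeq (build GRCm38.p6), on the gene's strand, with matches to the core motif of NFAT in capitals. For Cd274, Tigit and Btla, the last not shown, this start lies inside the gene's RefSeq bounds, which reach farther upstream. NFAT is the calcium-regulated transcription factor of activated T cells.
Ctla4 (chr1:60908875-60909024, plus strand): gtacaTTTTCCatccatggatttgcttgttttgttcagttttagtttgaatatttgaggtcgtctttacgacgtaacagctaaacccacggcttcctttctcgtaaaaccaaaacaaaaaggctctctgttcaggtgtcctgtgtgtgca
Tigit (chr16:43664185-43664334, minus strand): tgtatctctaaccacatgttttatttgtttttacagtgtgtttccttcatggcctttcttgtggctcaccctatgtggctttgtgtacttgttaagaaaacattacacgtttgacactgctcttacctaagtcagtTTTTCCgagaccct
Cd274 (chr19:29367288-29367437, plus strand): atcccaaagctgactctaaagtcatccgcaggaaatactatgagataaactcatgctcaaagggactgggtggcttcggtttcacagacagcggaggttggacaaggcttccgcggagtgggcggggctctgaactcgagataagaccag
Pdcd1lg2 (chr19:29410769-29410918, plus strand): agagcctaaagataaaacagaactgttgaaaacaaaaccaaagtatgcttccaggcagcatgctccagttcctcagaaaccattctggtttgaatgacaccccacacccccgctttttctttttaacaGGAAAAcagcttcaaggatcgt

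The motif searched for NFAT was GGAAAA on both strands in the 250 bases upstream of the start. It was present in 3 of the 6 promoters (Ctla4, Tigit and Pdcd1lg2) and in 20.4% of the 32851 promoters of the RefSeq table. The promoters with a match are all shown, and those left out, of Btla and Pdcd1, had none. Motifs of other factors were absent from all 6 windows, namely the interferon-gamma activated site TTCNNNGAA (7.0% of all promoters), the interferon-stimulated response element (3.0%) and the AP-1 site TGANTCA (6.7%). A match is a description of the letters, and no overlap between different motifs occurred. Cd274 and Pdcd1lg2 lie 22.8 kb apart on chromosome 19, Tigit and Btla both lie on chromosome 16, and Ctla4 and Pdcd1 lie 33122.5 kb apart on chromosome 1.

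Depth differed between samples and limits the low genes. Values are the authors' normalized counts, and net counts behind them were recovered from the size of the steps between low values. Net counts per sample ranged between 79210 and 403396 in 10 samples, but were 12292 in the Sirpα-KO and 21576 in the WT KPC tumors without IR, where 1 count was worth 6.48 and 3.79 normalized counts. The 14 reference genes of the panel summed to the same value in all 4 samples of a tumor model, 58124 in MC38, 43973 in Pan02 and 25880 in KPC, so the tumor models were scaled separately and levels are comparable within a model only. The low end of the distribution also differed. The 20th percentile of the 561 genes was 20.5, 49.5 and 17.8 normalized counts in Sirpα-KO IR samples (MC38, Pan02 and KPC), and at most 6.48 in each of the other 9 samples. For this reason each gene is also given by its rank, the percentage of the 561 genes with a lower value in the same sample, which does not depend on scaling.

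All 6 checkpoint genes were higher in Sirpα-KO IR than in WT IR tumors in 3 of 3 tumor models, a pattern that 35.6% of the 461 genes tested showed. Ctla4 and Btla passed the test (2 of 6 called higher), against 15.8% of all genes. The median log2 fold change of all genes was 0.16. Genes were tested where the highest of the 12 values was at least 50, a limit that all 6 passed, but Ctla4, Pdcd1lg2 and Tigit reached it in Sirpα-KO IR samples only, so counts over the 6 are a description. Ctla4 had the largest log2 ratio of the 6 in each tumor model. In bulk tumor RNA, more cells of a type and more RNA per cell cannot be told apart.

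**Figure D1:**
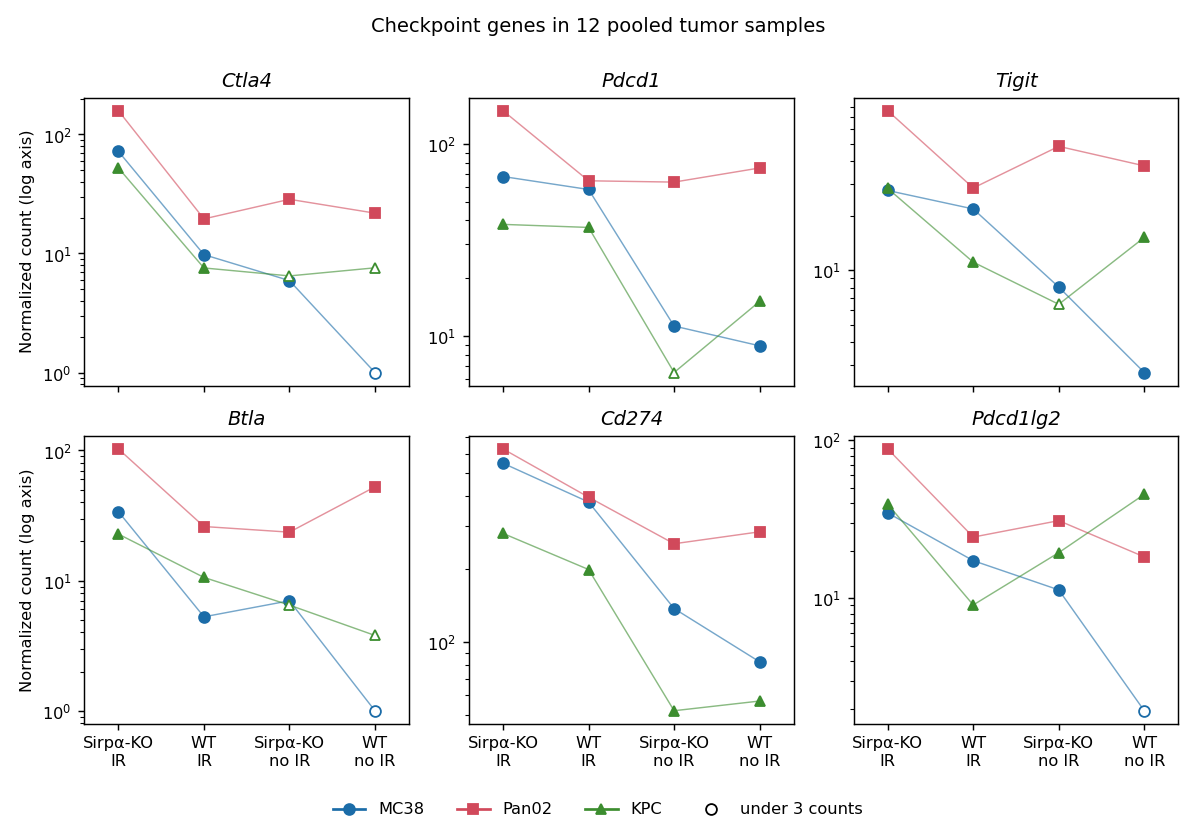
Normalized counts (log axis) of the 6 checkpoint genes in the 12 pooled samples, by group along the horizontal axis, 1 symbol per tumor model and open symbols for values under 3 counts. The Sirpα-KO IR sample was the highest of the 4 conditions for every gene in MC38 and Pan02 tumors, and for 5 of 6 genes in KPC tumors. Among all genes tested it was the highest for 57.9% in MC38, 52.3% in Pan02 and 44.3% in KPC tumors.

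Ctla4, the receptor that competes with CD28 for CD80 and CD86, was close to the detection limit in most samples. In MC38 tumors it stood at 72.1 normalized counts in Sirpα-KO IR and 9.78 in WT IR, and at 5.92 in Sirpα-KO and 1.0 in WT without IR. In Pan02 tumors it stood at 158.3 in Sirpα-KO IR and 19.5 in WT IR, and at 28.5 in Sirpα-KO and 21.8 in WT without IR. In KPC tumors it stood at 52.3 in Sirpα-KO IR and 7.56 in WT IR, and at 6.48 in Sirpα-KO and 7.58 in WT without IR. The Sirpα-KO IR sample was thus the highest of the 4 in each tumor model. The net counts behind these values were 81.0, 65.5 and 85.0 in Sirpα-KO IR, and 6.5, 24.0 and 15.0 in WT IR tumors.

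Between Sirpα-KO IR and WT IR tumors, Ctla4 rose by a log2 fold change of 2.13 ± 0.32 (SE; limma, Benjamini-Hochberg adjusted p = 0.00379, n = 3 each), higher than 97.6% of the genes tested. Within tumor models the log2 ratio was 2.05 ± 0.61 in MC38, 2.51 ± 0.50 in Pan02 and 1.83 ± 0.41 in KPC (half-width of the 95% counting interval). Its rank was 47.6, 58.6 and 55.6% in Sirpα-KO IR, against 24.4, 34.2 and 29.1% in WT IR tumors, so the groups did not overlap on the scaling-free measure either. How many of all genes were free of overlap in rank was not counted. When every sample was given the same distribution (quantile normalization), the log2 fold change was 1.52 with an adjusted p of 0.0172. Without the KPC samples the adjusted p was 0.0854.

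Ctla4 also rose with irradiation in Sirpα-KO tumors (log2 fold change 2.14 ± 0.32, adjusted p = 0.00368 by limma). This call was lost with edgeR (adjusted p = 0.0601), with the methods' t-test (0.262) and without KPC (0.0565). In WT tumors the irradiation effect was 0.25 ± 0.32 (adjusted p = 0.705) and the 3 tumor models split, with MC38 higher and the other two marginally lower after IR. The test of the difference between the irradiation effects of the genotypes gave a log2 value of 1.89 ± 0.45 with an unadjusted p of 0.00147 and an adjusted p of 0.09 (limma), above the threshold. Without irradiation, Sirpα-KO and WT tumors differed by 0.24 ± 0.32 (adjusted p = 0.967).

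**Figure D2:**
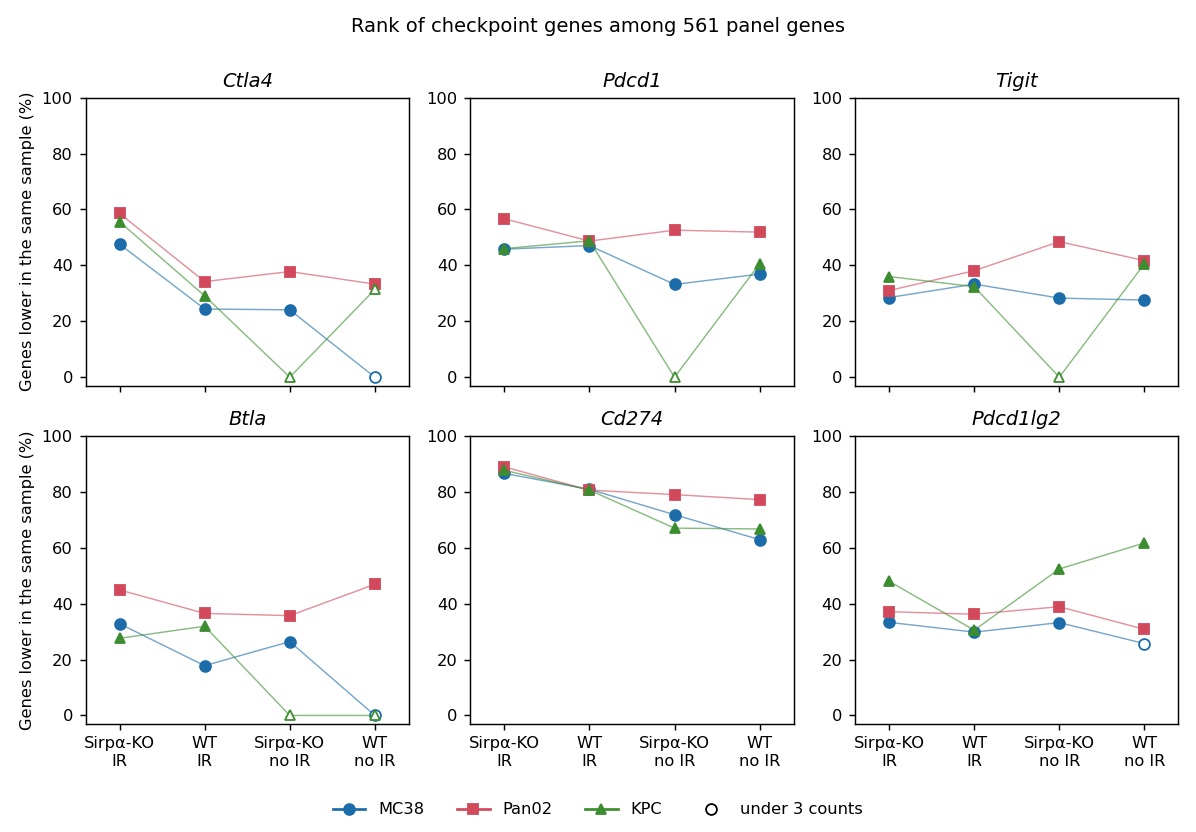
Rank of each checkpoint gene within its sample, as the percentage of 561 genes with a lower value, by group and tumor model. Ctla4 ranked at 47.6 to 58.6% in Sirpα-KO IR samples and at 37.8% or less in all others, and Cd274 ranked at 80.6 to 88.9% in the 6 irradiated samples and at 62.9 to 79.0% in the 6 without IR.

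Some T cell genes moved with Ctla4. Of 13 measured genes of a T cell list, 8 could be tested, and 3 of these (Cd8b1, Cd7 and Cd247) were higher in Sirpα-KO IR than in WT IR tumors, against 15.8% of all genes, with a list median of 0.95 against 0.16. The other 5 did not pass, among them the kinase gene Lck at -0.07. The 3 called genes reached the limit of 50 for testing in the Sirpα-KO IR Pan02 sample only. The other 5 also reached it in samples of other groups. The count and the list median are thus a description. The summed level of the list was 345.2 to 1238.5 in Sirpα-KO IR and 247.4 to 438.6 in WT IR tumors, and of the 13 genes only Cd4 was at its sample's lowest value in an irradiated tumor (WT IR MC38). Cd8b1, a chain of the CD8 co-receptor, stood at 46.3, 107.5 and 29.5 normalized counts in Sirpα-KO IR (MC38, Pan02 and KPC), against 5.27, 16.3 and 7.05 in WT IR tumors. Other T cell genes differed less. The log2 fold change was 0.79 for Cd8a, 0.74 for the receptor chain Cd3e and 0.45 for Cd3d, none of which passed the test (adjusted p of 0.184, 0.264 and 0.704 by limma). Foxp3, the defining factor of regulatory T cells, stayed low, at 11.6, 10.9 and 8.0 normalized counts in Sirpα-KO IR and 2.26, 4.88 and 1.0 in WT IR tumors, too low to be tested. The part of T cell number in the Ctla4 difference was not tested.

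**Figure D3:**
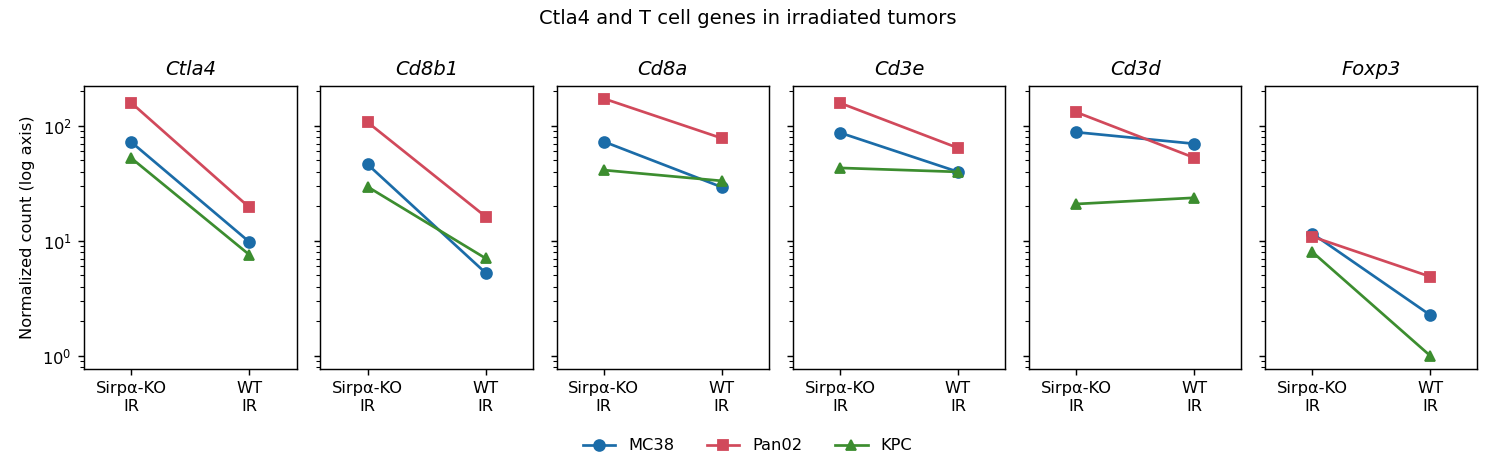
Normalized counts (log axis) of Ctla4 and of 5 T cell genes in irradiated tumors, Sirpα-KO left of WT, 1 line per tumor model. Ctla4 and Cd8b1 were far lower in WT IR samples of all 3 tumor models, whereas Cd3e, Cd8a and Cd3d differed less, most clearly in KPC tumors.

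Btla, the HVEM receptor, was the second gene called between the genotypes under IR, on low values. It stood at 33.8 normalized counts in Sirpα-KO IR and 5.27 in WT IR MC38 tumors, with 7.0 in Sirpα-KO and 1.0 in WT tumors without IR. In Pan02 tumors the values were 102.7 in Sirpα-KO IR and 26.0 in WT IR, and 23.6 in Sirpα-KO and 52.5 in WT without IR. In KPC tumors they were 22.8 in Sirpα-KO IR and 10.6 in WT IR, and 6.48 in Sirpα-KO and 3.79 in WT without IR. The Sirpα-KO IR sample was the highest in each tumor model, but over the 3 models, which were scaled separately, the groups overlapped.

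Btla rose by a log2 fold change of 1.28 ± 0.37 between Sirpα-KO IR and WT IR tumors (limma, adjusted p = 0.0346). Its rank was higher in MC38 (32.8 against 17.8%) and Pan02 (44.9 against 36.5%), but lower in KPC (27.6 in Sirpα-KO IR against 31.9% in WT IR). With quantile normalization the log2 fold change was 0.31 (adjusted p = 0.734), and the call was lost under 11 of 16 alternatives. B cell and dendritic cell genes moved with it. Of 6 tested B cell genes 4 were higher, among them Ms4a1, Cd79a and Cd79b, against 15.8% of all genes, while Blnk, an adaptor of the B cell receptor and the highest gene of the list, stood at a log2 fold change of -0.06. The B cell list of 8 summed to 147.7 to 422.9 in Sirpα-KO IR and 45.3 to 77.7 in WT IR tumors. The defining B cell gene Ms4a1 was at the lowest value of its sample in the WT IR Pan02 tumor and in no Sirpα-KO IR tumor. Of 4 dendritic cell genes 3 were higher (Xcr1, Ccr7 and Batf3), against the same 15.8% of all genes, while the integrin gene Itgax, the most abundant of the list, stood at 0.09. The list had sums of 153.1 to 464.0 in Sirpα-KO IR and 65.4 to 340.9 in WT IR tumors. The called genes of both lists reached the limit of 50 in the Sirpα-KO IR Pan02 sample only. Some lay near the 20th percentile of the Sirpα-KO IR samples (20.5, 49.5 and 17.8 in MC38, Pan02 and KPC). Cd79a stood at 11.6, 54.4 and 16.0 and Xcr1 at 33.8, 56.8 and 18.5. Ms4a1 (25.8, 97.9 and 28.9) and Ccr7 (38.3, 95.5 and 27.7) lay above it. The counts and sums are thus a description, and the part of these cell types in the Btla difference was not tested.

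Tigit, which competes for the poliovirus receptor, and Pdcd1, the PD-1 gene, were not called between the genotypes under IR. Tigit stood at 27.6, 76.1 and 28.3 normalized counts in Sirpα-KO IR (MC38, Pan02 and KPC), against 21.8, 28.5 and 11.1 in WT IR tumors, a log2 fold change of 0.76 ± 0.38 (limma, adjusted p = 0.236). In rank it was higher in KPC tumors only, and its fold change turned to -0.15 with quantile normalization. Without IR it stood at 8.07, 48.4 and 6.48 in Sirpα-KO and 2.72, 37.8 and 15.2 in WT tumors.

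Pdcd1 differed between the genotypes in 1 tumor model. It stood at 67.6, 148.6 and 38.2 normalized counts in Sirpα-KO IR (MC38, Pan02 and KPC), against 57.9, 64.3 and 36.8 in WT IR tumors. The MC38 and KPC values differed by less than the counting error, with log2 ratios of 0.19 ± 0.48 and 0.04 ± 0.39 (95% counting interval), and only the Pan02 pair stood apart at 1.10 ± 0.44. Across tumor models the log2 fold change was 0.44 ± 0.40 with an interval of -0.44 to 1.32 (limma, adjusted p = 0.547). Without IR the values were 11.3, 63.3 and 6.48 in Sirpα-KO and 8.92, 74.9 and 15.2 in WT tumors.

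The ligands of PD-1 behaved differently from each other. Cd274, encoding PD-L1, was by far the best measured gene of the set, with no value under 3 counts. In MC38 tumors it stood at 547.4 normalized counts in Sirpα-KO IR and 378.3 in WT IR, and at 137.3 in Sirpα-KO and 82.7 in WT without IR. In Pan02 tumors it stood at 627.1 in Sirpα-KO IR and 396.2 in WT IR, and at 254.4 in Sirpα-KO and 285.0 in WT without IR. In KPC tumors it stood at 280.6 in Sirpα-KO IR and 199.0 in WT IR, and at 51.9 in Sirpα-KO and 56.9 in WT without IR. Both irradiated samples were above both non-irradiated samples in each tumor model.

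Cd274 rose with irradiation in Sirpα-KO tumors (log2 fold change 1.81 ± 0.34, limma, adjusted p = 0.00701), with log2 ratios of 1.92 ± 0.26 in MC38, 1.27 ± 0.32 in Pan02 and 2.23 ± 0.85 in KPC (95% counting interval). In WT tumors the change was 1.39 ± 0.34 with an unadjusted p of 0.00174 and an adjusted p of 0.267 (limma), higher in 3 of 3 tumor models and above 97.6% of all genes, with log2 ratios of 2.07 ± 0.30 in MC38, 0.46 ± 0.18 in Pan02 and 1.64 ± 0.64 in KPC. The irradiation effect in Sirpα-KO minus that in WT tumors was 0.42 ± 0.48, with an interval of -0.64 to 1.47 (adjusted p = 0.758). Its rank was 86.6, 88.9 and 87.7% in Sirpα-KO IR and 80.9, 80.6 and 80.6% in WT IR, against 71.8, 79.0 and 67.0% in Sirpα-KO and 62.9, 77.2 and 66.7% in WT tumors without IR. In rank the 6 irradiated samples thus lay above all 6 others. The share of all genes with such a pattern in rank was not counted. With edgeR on the recovered counts the change in Sirpα-KO tumors was 0.86 with an adjusted p of 0.11, and without the KPC samples limma's adjusted p was 0.0642.

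Between Sirpα-KO IR and WT IR tumors Cd274 differed by a log2 fold change of 0.55 ± 0.34 (limma, adjusted p = 0.344). The pairs within tumor models lay close together at 0.52 ± 0.21, 0.65 ± 0.21 and 0.47 ± 0.19 (MC38, Pan02 and KPC, 95% counting interval). Without IR the genotypes differed by 0.13 ± 0.34 (adjusted p = 0.967), with MC38 higher and Pan02 and KPC lower in Sirpα-KO.

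Pdcd1lg2, encoding PD-L2, stayed low. It stood at 34.7, 88.2 and 39.4 normalized counts in Sirpα-KO IR (MC38, Pan02 and KPC), against 17.3, 24.4 and 9.07 in WT IR tumors. Without IR it stood at 11.3, 31.0 and 19.5 in Sirpα-KO and 1.94, 18.3 and 45.5 in WT tumors. The highest KPC value was that of WT without IR, at 12.0 net counts, the 1 case of 18 in which the Sirpα-KO IR sample did not lead. Over all genes tested, the Sirpα-KO IR sample led for 57.9, 52.3 and 44.3% (MC38, Pan02 and KPC). The log2 fold change of Pdcd1lg2 between Sirpα-KO IR and WT IR was 1.2 ± 0.46 (limma, adjusted p = 0.109), and 0.0397 was the adjusted p without the non-irradiated KPC samples. Its rank hardly moved in MC38 (33.3 against 29.8%) and Pan02 (37.1 against 36.2%) and was higher in KPC (48.0 against 30.5%).

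Of the comparisons by genotype or irradiation, irradiation in Sirpα-KO tumors gave the most calls. All 6 genes were higher after IR in 3 of 3 tumor models, as were 65.9% of all genes, and 4 of 6 passed the test, against 43.0% of all genes. Besides Ctla4 and Cd274 these were Pdcd1 (log2 fold change 1.51 ± 0.40, adjusted p = 0.0142) and Btla (1.37 ± 0.37, adjusted p = 0.0142), both by limma. The median over all genes was 0.91, so that Pdcd1lg2 (1.02 ± 0.46, adjusted p = 0.0907) and Tigit (0.94 ± 0.38, adjusted p = 0.0626) lay next to it. With quantile normalization Pdcd1 (0.77, adjusted p = 0.228) and Btla (0.37, adjusted p = 0.465) lost the call, and Pdcd1lg2 (-0.19) and Tigit (-0.13) changed sign. The groups did not overlap for 3 of 6 genes (Ctla4, Cd274 and Pdcd1lg2), against 25.4% of all genes, on values scaled separately by tumor model.

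**Figure D4:**
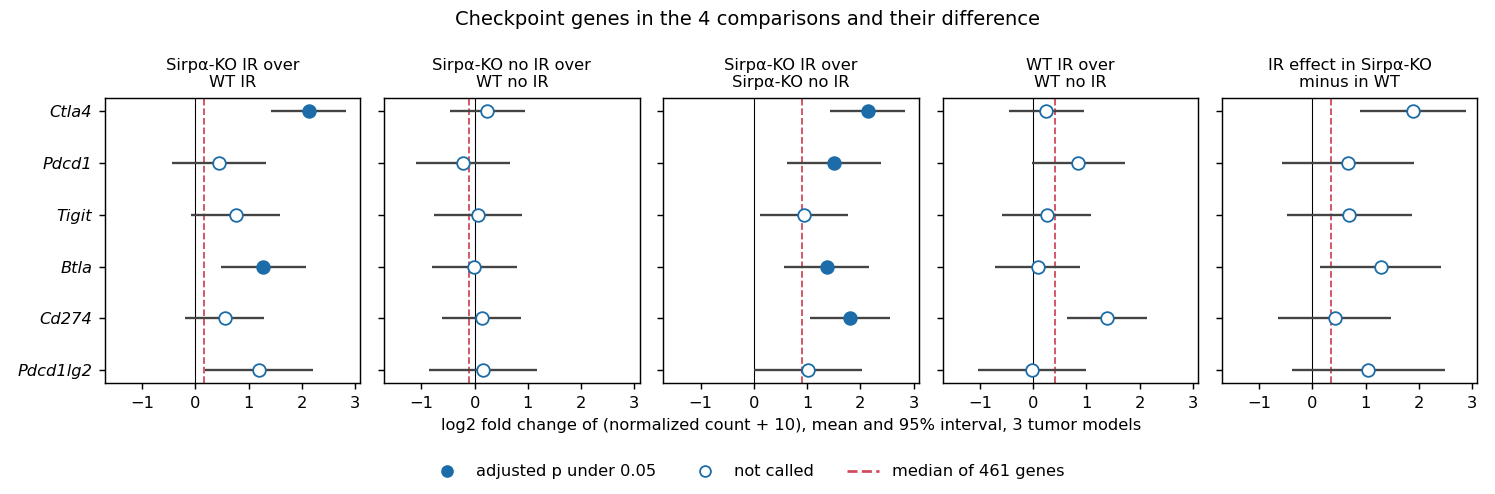
Log2 fold change of (normalized count + 10) with the 95% interval of limma for the 6 genes in 4 comparisons and in the difference of the irradiation effects, filled where the adjusted p was under 0.05. Dashed lines mark the median of the 461 genes, 0.16 for Sirpα-KO IR over WT IR and 0.91 for Sirpα-KO IR over Sirpα-KO without IR.

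In WT tumors, irradiation gave no call for any of the 6 genes, nor for any of all genes (0.0% higher; 75 genes higher and 1 lower at an unadjusted p under 0.05 by limma, 7 and 9 by edgeR). Cd274 was the 1 gene of the 6 that was higher in 3 of 3 tumor models, against 34.7% of all genes, and no gene of the 6 was free of overlap, against 0.651%. The log2 ratio of Pdcd1 was 1.84 ± 0.55 in MC38, 0.89 ± 0.89 in KPC and -0.19 ± 0.35 in Pan02 tumors (95% counting interval). Genotype without irradiation also gave no call (0 of 6 genes, 0.0% of all genes higher; 1 gene higher and 11 lower at an unadjusted p under 0.05 by limma, 6 and 7 by edgeR), and 0 of 6 genes were higher in all 3 tumor models, against 16.9% of all genes. The difference between the irradiation effects of the genotypes likewise gave no call (0.0% of all genes higher; 74 genes higher and 0 lower at an unadjusted p under 0.05 by limma, 25 and 20 by edgeR).

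Overlap between groups compares values that were scaled separately in each tumor model. On these values Ctla4 and Pdcd1lg2 were the 2 of 6 genes whose Sirpα-KO IR and WT IR samples did not overlap, against 17.8% of all genes. Within tumor models, ratios were counted at 2-fold where the larger value was at least 50. Between Sirpα-KO IR and WT IR tumors 7 of 11 such ratios of checkpoint genes were at least 2-fold higher, against 18.6% of the ratios of all genes, and 5 of these 7 came from Pan02 tumors, where 146 of 448 genes passed the same limit. The other two were Ctla4 in MC38 and KPC tumors. Of these 7, only Pdcd1 in Pan02 tumors also reached 50 in the WT IR sample. The others entered through the Sirpα-KO IR value alone, so the count is a description. Irradiation gave 10 of 11 ratios in Sirpα-KO tumors, against 39.4% of all, and 3 of 6 in WT tumors, against 24.2%. These 3 were Cd274 in MC38 and KPC and Pdcd1 in MC38 tumors. Of the 10 ratios in Sirpα-KO tumors, those of Cd274 and that of Pdcd1 in Pan02 reached 50 in both samples. The others reached it in the Sirpα-KO IR sample only. Genotype without irradiation gave 0 of 5, against 3.48%.

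Partner molecules on the panel were taken from a list of 23, of which 12 were measured and 9 could be tested. Between Sirpα-KO IR and WT IR tumors 1 of the 9 was higher, against 15.8% of all genes. This was Cd96, a receptor that shares the TIGIT ligand (log2 fold change 1.56 ± 0.36, limma, adjusted p = 0.0118), on values of 20.9 to 52.0 in Sirpα-KO IR and 1.0 to 9.78 in WT IR tumors. Cd96 reached the limit of 50 in the Sirpα-KO IR Pan02 sample only. Its Sirpα-KO IR values (24.0, 52.0 and 20.9 in MC38, Pan02 and KPC) lay near the 20th percentile of those samples (20.5, 49.5 and 17.8). The ligands of CTLA-4 did not pass the test, with 0.49 ± 0.38 for Cd80 and 0.79 ± 0.41 for Cd86, and Tnfrsf14 stood at -0.39 ± 0.31. After irradiation of Sirpα-KO tumors 6 of the 9 were higher (Cd80, Cd86, Cd96, Icos, Icosl and Lair1), against 43.0% of all genes, with a list median of 1.25 against 0.91 for all genes. Cd80 rose by 1.45 ± 0.38 (adjusted p = 0.0131) and Cd86 by 1.60 ± 0.41 (adjusted p = 0.013). In both comparisons without Sirpα-KO IR samples none of the 9 was called, and neither was any other gene tested.

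Interferon-gamma signalling was examined beside Cd274. Of 12 genes tested, Ifng was the 1 called higher between Sirpα-KO IR and WT IR tumors, against 15.8% of all genes. The list median was -0.30, against 0.16 for all genes. Ifng stood at 24.9, 197.0 and 42.5 normalized counts in Sirpα-KO IR (MC38, Pan02 and KPC), against 8.27, 18.7 and 8.56 in WT IR tumors (log2 fold change 1.76 ± 0.45, limma, adjusted p = 0.0216). Downstream of it, the transcription factor Irf1 (-0.14 ± 0.31) did not pass the test. After irradiation of Sirpα-KO tumors 5 of the 12 were higher (Ifng, Irf1, Cxcl10, Irf8 and Socs1), a share near the 43.0% of all genes, and the list median of 0.74 was below that of all genes (0.91). Irf1 rose by 1.09 ± 0.31 (adjusted p = 0.0173). In WT tumors Irf1 changed by 0.96 ± 0.31 with irradiation (adjusted p = 0.276). Of the 9 genes of MHC class II measured, a list that also holds genes of its regulation and peptide loading, 7 could be tested and none was called in any of the 4 comparisons. Of all genes, 15.8% were called higher between Sirpα-KO IR and WT IR tumors and 43.0% with irradiation in Sirpα-KO tumors. In the comparisons without Sirpα-KO IR samples no gene was called.

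Genes most like each checkpoint gene were found by Pearson correlation of log2 values over the 12 samples after subtracting each tumor model's mean, among 460 other genes, and are a description of samples that share their scaling. Ctla4 was most like Cd8b1 (r = 0.985), Il25 (0.966) and H2-Q10 (0.966), against a median of 0.457 over all genes. Il25 stood at 44.5, 97.9 and 43.1 normalized counts in Sirpα-KO IR (MC38, Pan02 and KPC) and at 6.48 or less in all other samples. Its correlation thus followed the Sirpα-KO IR samples, in which the low end of all genes was also higher. Cd274 was most like Cd80 (0.979), Tnfsf10, which encodes the death ligand TRAIL (0.963), and Tyk2, a kinase of interferon receptors (0.961), against a median of 0.629. Pdcd1 was most like Cd80 (0.952), Cd36 (0.943) and Cd274 (0.942), and was thus the 1 gene of the set with another of the 6 among its top 3. Btla was most like Irak3 (0.967), the dendritic cell receptor Xcr1 (0.966) and C6 (0.949). Tigit was most like Gata3 (0.939) and Icos (0.938), both genes of T cells. Pdcd1lg2 was most like Tlr5 (0.914), Pparg (0.894) and Il18rap (0.887), against a median of 0.265.

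Tumor models were compared last, because their values were scaled separately. All but Pdcd1lg2 were called higher in Pan02 than in KPC tumors (5 of 6), as were 67.0% of all genes. After scaling all samples to the reference genes no gene of the panel was called, with 113 genes higher and 9 lower at an unadjusted p under 0.05 (limma), and edgeR gave 26 and 23. Against the mean of Pan02 and KPC, MC38 tumors were lower in 1 of the 6 genes, Btla (log2 fold change -0.80, adjusted p = 0.0418), against 8.89% of all genes. The irradiation effect in MC38 minus that in the pancreatic models was called for 0 of 6 genes, against 2.39% of all genes higher.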

How the data were processed

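Tumor RNA (100 ng per pool) was counted on an nCounter instrument with a mouse immunology panel. The authors made the deposited signal, normalized counts per gene, in nSolver 2.6, deducted the background of 8 negative controls and applied a factor from 6 positive controls. Reference gene scaling is not named in the sources used here, and the equal sums of the 14 reference genes within a tumor model were found in the values. Gene symbols were kept as deposited.

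Net counts were recovered from the steps between low values (tolerance 0.1 count). Recovery gave whole numbers for 100.0% of values above a sample's minimum, with an offset of 0.5 in 5 samples and none in 7. Counting intervals cover counting error only. For the tests, genes reaching 50 in any sample (461) were put on the scale log2(normalized count + 10), and limma 3.58.1 in R 4.3.3 modelled group means with tumor model as block and a variance trend, and Benjamini-Hochberg adjusted p under 0.05 was called. This scale understates changes of low genes. EdgeR 4.0.16 on the recovered counts called 57 genes higher and 35 lower between Sirpα-KO IR and WT IR tumors. On simulated data the limma step was tested before use. Alternatives were other scalings, pseudocounts, filters and designs, leaving out each tumor model, and the methods' t-test. Quantile normalization, edgeR, ranks and the omission of non-irradiated KPC samples were added after seeing the data. The genes named are the checkpoint genes, the 3 most correlated with each and up to 4 of the highest of each list, with Ifng, Irf1, Cd80, Cd86 and Tnfrsf14 always. Other list genes that were called, and Cd8a, Cd4 and Foxp3, were chosen after their values were seen. Some genes that the rule names are not reported here. Members and lists were chosen with earlier results of these data known.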

Additional observations from a re-analysis of the deposited data

How the results depend on the processing

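Of 6 checkpoint genes, the number called between Sirpα-KO IR and WT IR tumors was 2. It was 1 with a pseudocount of 1 or 50, a highest value of at least 100, no block, only the compared groups, quantile normalization or edgeR, 0 with the methods' t-test, and 0 to 2 when a tumor model was left out. Ctla4 kept the call under 14 of 16 alternatives (log2 fold change 1.15 to 2.79, adjusted p 0.00263 to 0.318) and lost it with the t-test (0.318) and without KPC (0.0854). For irradiation in Sirpα-KO tumors the number was 4. It was 2 with median-ratio scaling or quantile normalization, 1 without the block, 0 with the t-test or edgeR, and 0 to 4 without a tumor model. Cd274 kept that call under 12 of 16 alternatives and Ctla4 under 13, which lost it with edgeR at 0.0601. For MC38 against the pancreatic models the number was 1. It was 5 with reference gene scaling, 3 with median-ratio scaling or edgeR, 0 with a pseudocount of 50, no block, quantile normalization or without non-irradiated KPC, and 0 to 1 with 1 condition left out. For Pan02 against KPC it was 5, and 0 with reference gene scaling, median-ratio scaling, quantile normalization or edgeR.

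At 2-fold within tumor models, the 7 of 11 ratios between Sirpα-KO IR and WT IR became 3 of 6 with a highest value of at least 100 and 9 of 18 with no filter. The 10 of 11 for irradiation in Sirpα-KO tumors became 6 of 6 with that minimum, 6 of 11 with median-ratio scaling and 15 of 18 with no filter. The 3 of 6 in WT tumors became 6 of 18 with no filter (5 higher and 1 lower, Pdcd1lg2 in KPC), and the 0 of 5 for genotype without IR became 1 of 5 with a pseudocount of 1 (Btla in Pan02, lower). Signs turned for Tigit between Sirpα-KO IR and WT IR (-0.15, quantile), for Pdcd1lg2 (-0.19) and Tigit (-0.13) with irradiation in Sirpα-KO tumors (quantile), for Cd274 between genotypes without IR (-0.135 without MC38, 0.278 without Pan02), for Ctla4 with irradiation in WT tumors (-0.055 without MC38, 0.422 without Pan02) and for Cd274 in the difference of irradiation effects (-0.078, edgeR). The cause was not tested.

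Over all genes, the 73 higher between Sirpα-KO IR and WT IR became 112 with no filter, 13 with a highest value of at least 100, 10 with only the compared groups or quantile normalization, 0 with the t-test, and 0 to 58 without a tumor model, and the split of 73 higher and 3 lower became 57 and 35 with edgeR. The 198 higher with irradiation in Sirpα-KO tumors (1 lower) became 68 (8 lower) with median-ratio scaling, 99 with a highest value of at least 100, 63 without the block, 120 with only the compared groups, 116 without non-irradiated KPC, 18 (4 lower) with quantile normalization, 14 (26 lower) with edgeR, 0 with the t-test, and 1 to 111 without a tumor model. The split of 118 higher and 41 lower in MC38 became 21 and 85 with reference gene scaling, 48 and 71 with median-ratio scaling, 63 and 44 with quantile normalization and 74 and 59 with edgeR. The 309 higher in Pan02 than in KPC became 0 under those 4. The 11 higher and 2 lower in the irradiation effect of MC38 became 17 and 3 with reference gene scaling, 9 and 7 with median-ratio scaling, 3 and 2 with quantile normalization, 9 and 6 with edgeR, 5 higher with no filter or no block and 3 with no trend, and 20 and 23 without Pan02 or 2 and 0 without KPC. Depth limits the low genes, since in non-irradiated KPC tumors 3 counts were 19.5 (Sirpα-KO) or 11.4 (WT) normalized counts.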
